A study of Mus musculus with 8 samples.

Results

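miR-140 and miR-455 are microRNAs (miRNAs) of the chondrocyte lineage, and the mature strands from both arms of their hairpins, miR-140-5p, miR-140-3p, miR-455-5p and miR-455-3p, were followed across 3 groups of mouse cells. The 4 miRNAs were picked by their exact names on the array, out of 611 mouse miRNAs that the array measured. The cells were C3H10T1/2, an established line of mouse mesenchymal cells that can be driven toward cartilage, bone or fat. In the WT group they were induced for 48 h with 750 nM of wild type IhhN, the signalling part of Indian hedgehog, and in the MT group with 750 nM of IhhN that carries the E95K change found in brachydactyly type A1, a shortening of the finger bones. The control group was not induced with protein according to its labels, although the source label of its samples also names 750 nM, which the labels do not resolve. Both proteins were recombinant, and a single cell line stands in for the growth plate. The comparisons ask whether the wild type and the mutant protein change the miRNAs of these cells, and whether they differ from each other.

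Each group had 2 RNA samples. The 2 WT RNA samples were each put on 2 arrays, and the MT and control samples on 1 array each, so 8 arrays were measured, all on 1 slide. The labels do not say that the 2 samples of a group came from separate cultures, so the p-values measure only the spread between these samples, which may be technical. The arrays measured RNA from the whole culture, in which fewer cells of a type and less RNA per cell cannot be told apart.

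Mature miRNAs are cut from a hairpin, and one strand is loaded into a silencing complex that pairs with messenger RNAs mainly through its seed, bases 2 to 8. The miR-140 hairpin lies inside Wwp2, a ubiquitin ligase gene, and the miR-455 hairpin lies inside Col27a1, a gene for a fibrillar collagen of cartilage. Both host genes are known targets of Sox9, the master transcription factor of cartilage. Mice that lack miR-140 have shortened long bones and a short skull, and Indian hedgehog is the growth plate signal that paces the maturation of chondrocytes.

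Mature sequences from RefSeq (GRCm38.p6) are shown for 3 members, those found by name in the table used here, because the seed decides which messages a strand can pair with. The capitals mark the seed. miR-140-3p maps to the plus strand at chr8:107551288-107551308, miR-455-5p to the plus strand at chr4:63256867-63256888 and miR-455-3p to the plus strand at chr4:63256904-63256924.
mmu-miR-140-3p: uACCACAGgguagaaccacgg
mmu-miR-455-5p: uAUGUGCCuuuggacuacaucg
mmu-miR-455-3p: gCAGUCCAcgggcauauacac
The 3 seeds differ from one another. Of the 611 mouse miRNAs on the array, 476 had a RefSeq sequence under the same name, and 0 of these shared a seed with the 3 members.

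Across the 8 arrays, between 104 and 150 mouse miRNAs were detected, which means that over 50% of the spots of a probe were well above background. Of the 611, 103 were detected on all 8 arrays and 449 on none. The level to which each array was scaled, the 75th percentile of 174 probes detected on every array, ranged from 432 to 565 signal units on the WT and MT arrays and was 785 and 606 on the control arrays. Markers fitting the line were present, since 11 of 13 mesenchymal or fibroblast miRNAs were detected on at least 1 array and 8 on all. Their summed signal as deposited was 6450 to 8910 in WT, 6520 to 7160 in MT and 11300 to 14200 in control, and its part in the results was not tested. The defining miRNAs of other cell types were nearly absent, with 0 of 6 detected for blood, 0 of 12 for epithelium, 0 of 4 for muscle, 0 of 2 for endothelium, 0 of 1 for liver, 1 of 5 for neuron and 1 of 21 for pluripotent cells. On the slide, the MT samples and WT replicate 1 lay on the left side and the control samples and WT replicate 2 on the right. In the comparison of MT with control, the side and the group therefore cannot be told apart. All WT arrays lay in row 1 of the slide and all MT and control arrays in row 2. In the comparisons of WT with control and of WT with MT, the row and the group therefore cannot be told apart.

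miR-140-3p was measured well above background on every array. Its signal as deposited was 1574 and 1472 on the arrays of WT replicate 1, 1499 and 1210 on those of WT replicate 2, 1236 and 1370 in MT, and 2289 and 1161 in control. The control samples held both the highest and the lowest of the 8 values, so the groups overlapped. miR-140-5p, the strand known for repressing Hdac4 and Adamts5 in cartilage, gave 209 and 211 in WT replicate 1, 298 and 238 in WT replicate 2, 193 and 212 in MT, and 506 and 288 in control. Control replicate 1 stood above all the other arrays, and control replicate 2 lay within the WT range.

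miR-455-3p, which is known to act on TGF-beta signalling in chondrocytes, was detected on all 8 arrays with a dim signal. It gave 56.7 and 54.1 in WT replicate 1, 70.5 and 53.8 in WT replicate 2, 70.7 and 47.7 in MT, and 56.4 and 50.5 in control. As deposited, the 3 groups overlapped. These values came from the brighter of its 2 probes, and the other, with signals of 7.57 to 17.2, was detected on 0 arrays. miR-455-5p was not well above background on any of the 8 arrays. Its brighter probe gave between 2.69 and 8.495 signal units, below the lowest detected probe of each array, which ranged from 14.02 to 38.4, so it was not tested and no fold is given. The number of arrays limits the precision of these values.

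**Figure D1:**
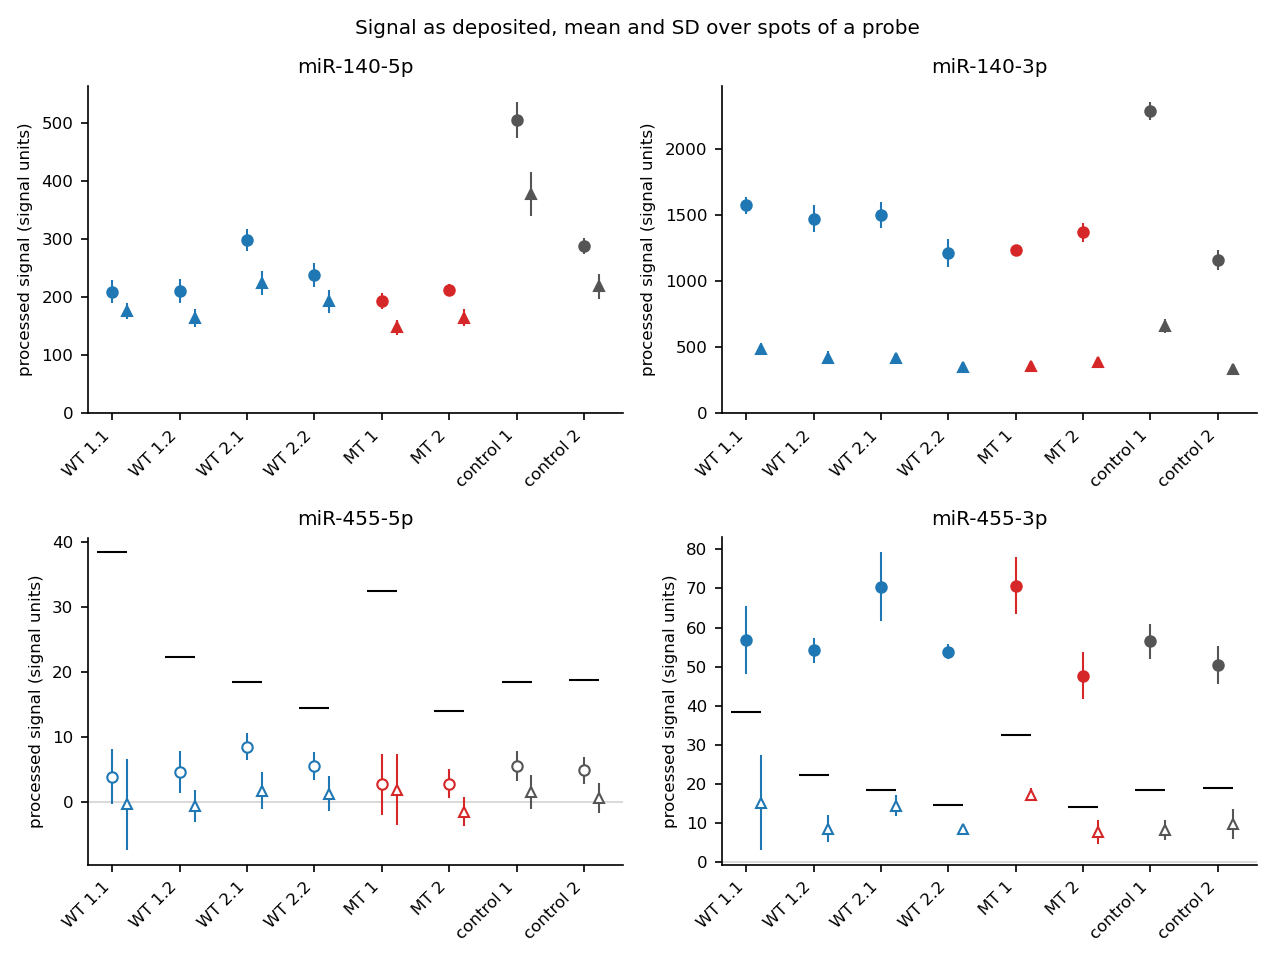
Processed signal as deposited (y axis, signal units) of both probes of miR-140-5p, miR-140-3p, miR-455-5p and miR-455-3p on each of the 8 arrays (x axis), blue for WT, red for MT and grey for control, with bars for the SD over the spots of a probe. Filled symbols were detected and open ones were not, circles are the brighter probe, triangles the dimmer, and black dashes in the miR-455 panels mark the lowest detected probe of each array. miR-455-5p lies below the dashes on all 8 arrays, and the 8 values of the brighter miR-455-3p probe lie between 47.7 and 70.7.

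Values were then scaled between arrays and compared on the log2 scale, the 2 arrays of a WT sample averaged first. Scaled miR-140-3p was 10.68 and 10.45 in WT, 10.50 and 10.68 in MT, and 10.56 and 9.96 in control. The order of group means was MT, WT, control, and neighbours in that order overlapped. The difference from control was 0.30 on the log2 scale in WT (SE 0.23, 95% interval -0.24 to 0.85), a 1.24-fold level, and 0.33 in MT (interval -0.21 to 0.88), a 1.26-fold level. Neither passed limma's test after Benjamini-Hochberg adjustment over 142 miRNAs, with adjusted p = 0.376 and 0.290. Without control replicate 1 the differences were 0.61 in WT and 0.64 in MT, and without control replicate 2 they were 0.0024 and 0.030. WT and MT differed by -0.03 (interval -0.57 to 0.51).

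Scaled miR-140-5p was 7.82 and 8.11 in WT, 7.82 and 7.99 in MT, and 8.38 and 7.95 in control. The order of group means was control, WT, MT, the opposite of that of miR-140-3p, and neighbours again overlapped. The difference from control was -0.20 on the log2 scale in WT (SE 0.20, interval -0.68 to 0.29) and -0.26 in MT (interval -0.74 to 0.23). Without control replicate 1 they were 0.022 and -0.04, and without control replicate 2 -0.42 and -0.48. Adjusted p by limma was 0.523 and 0.365, and WT and MT differed by 0.06 (interval -0.43 to 0.54). The 2 control samples lay 0.44 apart, and those of miR-140-3p 0.60, against a median of 0.20 over the 142 miRNAs.

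Scaled miR-455-3p was 5.90 and 5.998 in WT, 6.37 and 5.84 in MT, and 5.22 and 5.43 in control. All 4 induced samples lay above both control samples, while WT and MT overlapped. The difference from control was 0.62 in WT (SE 0.21, interval 0.12 to 1.12), a 1.54-fold level and the 3rd highest of 142. It was 0.78 in MT (SE 0.21, interval 0.28 to 1.28), a 1.72-fold level and the 9th highest. By size either way, the difference ranked 10th in WT and 14th in MT, and by limma's unadjusted p 19th and 15th. Neither passed limma's test after Benjamini-Hochberg adjustment, with adjusted p = 0.139 and 0.0611. These adjusted values were the smallest of each comparison and were shared with other miRNAs, among them let-7b-5p. WT and MT differed by -0.16 (interval -0.66 to 0.34). Before scaling, the signals as deposited overlapped, and the scaling level was higher on the control arrays. The scanner software's own total signal of miR-455-3p put control highest, with 57.5 to 115 on the WT arrays, 110 and 80.5 in MT, and 168 and 154 in control.

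Over the 142 miRNAs tested, 0% passed the adjusted threshold in each of the 3 comparisons, and so did 0 of the 3 tested members. At an unadjusted p under 0.05, 28.2% of all miRNAs passed in WT against control (17.6% higher in WT), 39.4% in MT against control (26.8% higher in MT) and 0% in WT against MT. miR-455-3p was the 1 member of 3 to do so in both comparisons with control, and it was higher in both. With the side of the slide in the model, the count over all miRNAs went from 40 to 4 in WT against control and from 56 to 0 in MT against control. Only the WT samples lay on both sides, so the side term rested on the difference between them. For WT against control this model gave the same fit as leaving out WT replicate 1, so the 2 are not separate checks. With the percentile over all mouse probes the count was 3 in WT and 26 in MT against control. With side in the model, the miR-455-3p difference from control was 0.67 in WT and 0.88 in MT, both larger than as reported. Its SE was 0.28 and 0.40, up from 0.21, and its unadjusted p by limma rose to 0.0646 and 0.0806. With all mouse probes this p was 0.464 in WT and 0.855 in MT, and with no scaling 0.634 and 0.656. Samples of the 2 groups did not overlap for 64.8% of miRNAs in WT against control (39.4% higher and 25.4% lower in WT), for 67.6% in MT against control (40.8% higher and 26.8% lower in MT) and for 26.1% in WT against MT (8.45% higher and 17.6% lower in WT). The members gave 1 of 3, 1 of 3 and 0 of 3, so a separation of this kind was common among all miRNAs. A change of over 2-fold either way was seen in 2.11% of miRNAs in WT against control, in 0.704% in MT against control and in 0% in WT against MT, and in 0 of the 3 members. The median difference over all 142 was 0.11 in WT against control, 0.13 in MT against control and -0.04 in WT against MT.

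**Figure D2:**
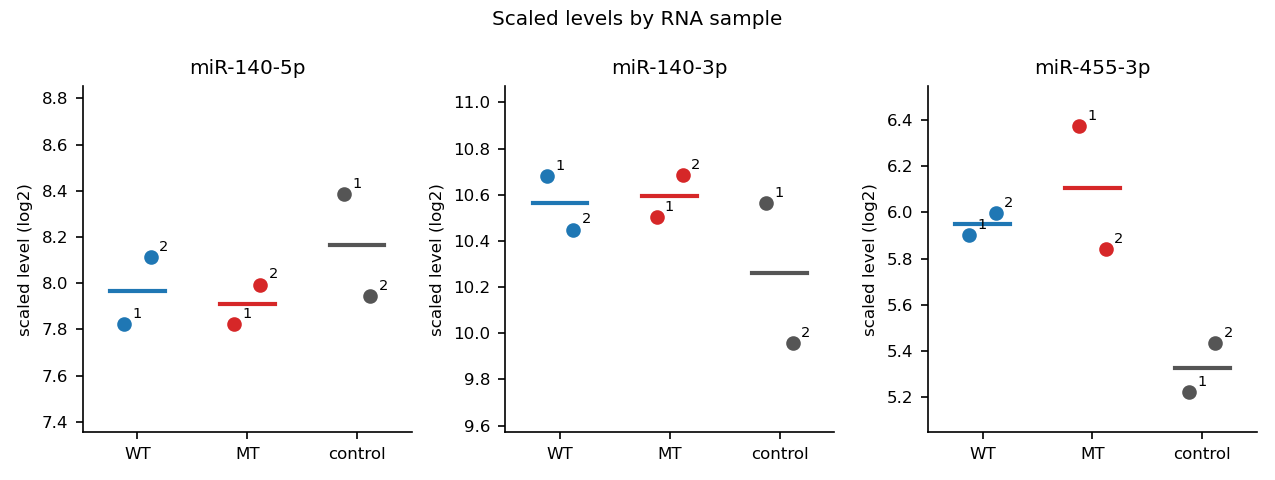
Scaled level (y axis, log2) of miR-140-5p, miR-140-3p and miR-455-3p in the 2 RNA samples of each group (x axis), numbered by replicate, with a line at the group mean. Each panel has its own y range of equal height. The control samples of miR-455-3p, at 5.22 and 5.43, lie below the 4 induced samples, which reach from 5.84 to 6.37.

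**Figure D3:**
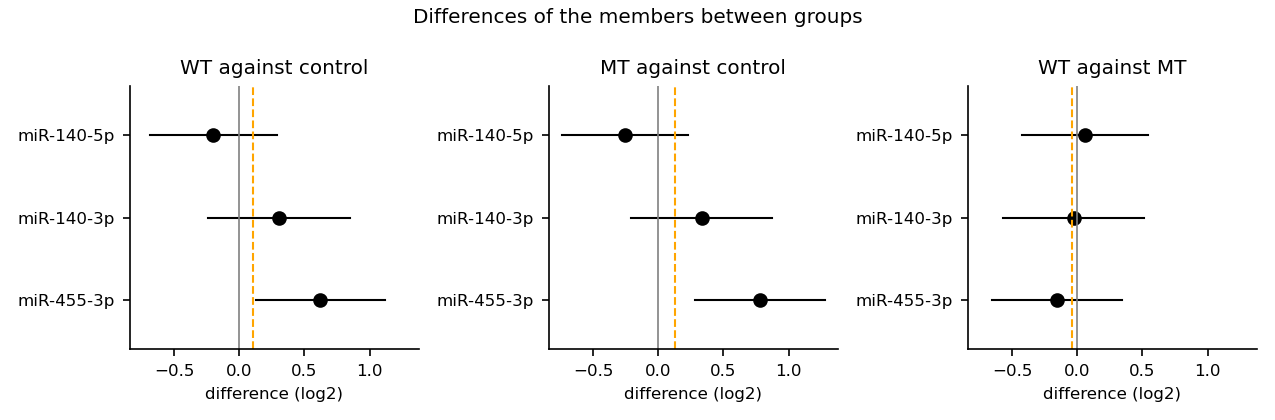
Difference between groups (x axis, log2) of miR-140-5p, miR-140-3p and miR-455-3p in each of the 3 comparisons. Points are the fitted differences, lines their 95% intervals, and the orange dashed line the median of the 142 miRNAs tested. The intervals of miR-140-5p and miR-140-3p span 0 in all 3 comparisons, and those of miR-455-3p lie above 0 against control, with adjusted p = 0.139 for WT and 0.0611 for MT.

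The choice of scaling moved the median of all 142 miRNAs, from 0.13 to -0.51 in MT against control when the 75th percentile was taken over all mouse probes and to -0.50 without scaling. A scaling by 1 factor per array shifts all miRNAs of that array alike, so the distance of a member from the median is fixed under such scalings apart from the floor, and only settings that change the values otherwise are set side by side here. In MT against control, miR-140-5p lay -0.39 from the median as reported, -0.32 with quantile normalization and -0.34 with normexp background correction, and in WT against control it lay -0.30, -0.26 and -0.32 from it. miR-455-3p lay 0.65, 0.68 and 0.42 from the median in MT and 0.52, 0.54 and 0.34 in WT. With the total signal, miR-455-3p lay below the median, at -0.19 in MT and -0.51 in WT.

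**Figure D4:**
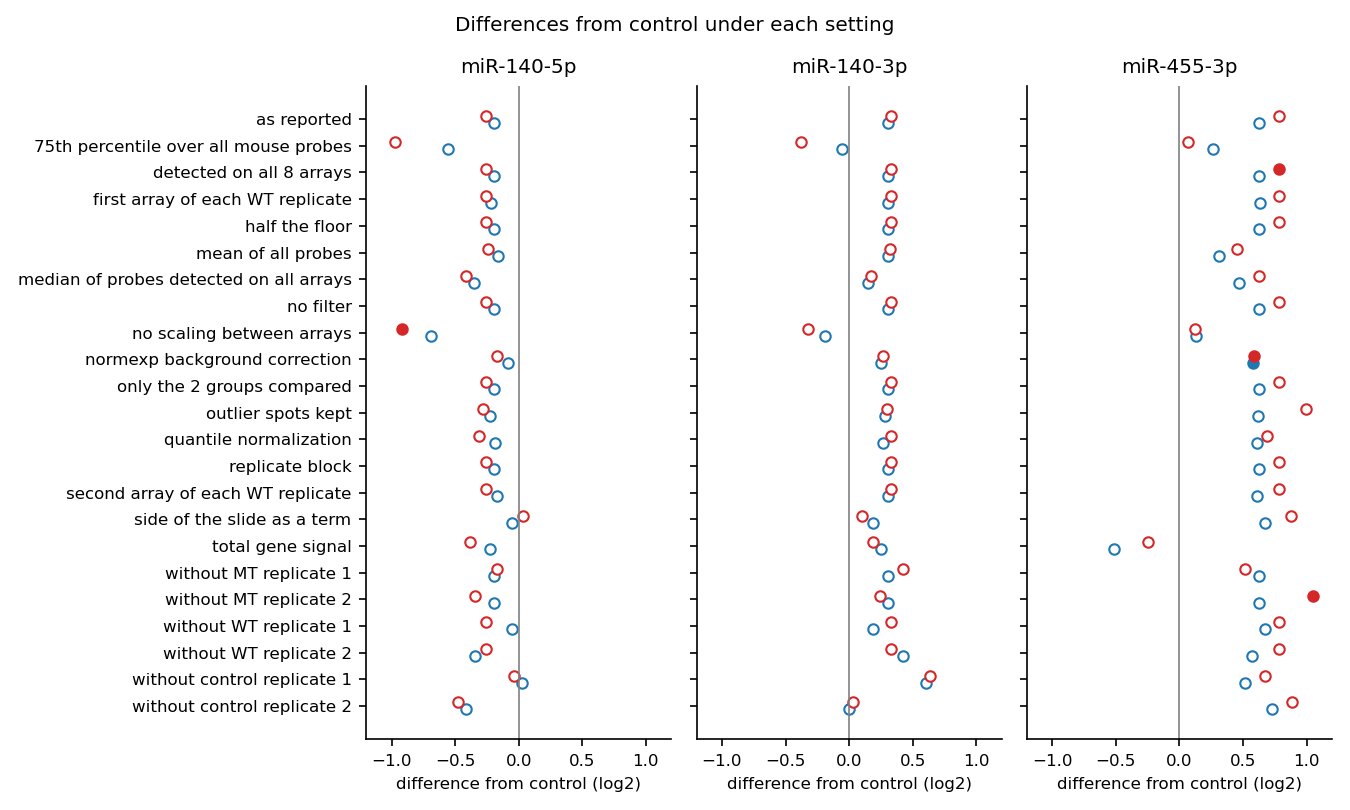
Difference from control (x axis, log2) of miR-140-5p, miR-140-3p and miR-455-3p under each processing setting (y axis), blue for WT and red for MT, filled where the adjusted p was under 0.05. miR-455-3p lies above 0 under all settings shown other than the total gene signal, at -0.25 for MT and -0.52 for WT, and miR-140-3p falls below 0 with the percentile over all mouse probes, at -0.38 for MT.

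The ratio between the strands of miR-140 on 1 array does not depend on the scaling of that array. The log2 ratio of the 5p to the 3p signal was -2.86 and -2.34 in WT, -2.68 and -2.69 in MT, and -2.18 and -2.01 in control. All 4 induced samples were lower than both controls. The mean was -2.60 ± 0.37 (SD, n = 2) in WT, -2.69 ± 0.0082 in MT and -2.10 ± 0.12 in control. With 2 samples a group, the smallest p an exact two-sided permutation test can give is 0.333, and this was the value for WT against control, a difference of -0.50, and for MT against control, a difference of -0.59. Without WT replicate 1 the WT difference was -0.24, and without WT replicate 2 it was -0.76. The 4 induced samples together differed from control by -0.55 (exact permutation p = 0.0667, the smallest possible). This pooling of WT and MT was not among the planned comparisons. Its p was fixed once all 4 induced samples lay below both controls, so it adds nothing to that ordering. The ratio moved with the side of the slide as well, as WT replicate 2, on the side of the controls, lay nearer to them than WT replicate 1, and its part in the result was not tested. Of the 6 hairpins whose strands were both detected on all 8 arrays, miR-140 changed the least in WT and was 4th of 6 by size in MT, and the others ranged from -1.02 to 0.84.

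**Figure D5:**
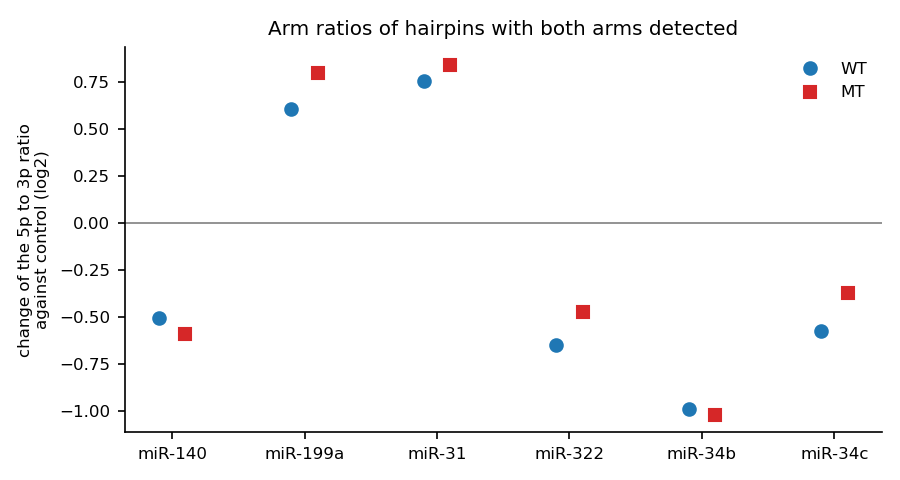
Change of the 5p to 3p log2 ratio against control (y axis) for the 6 hairpins with both arms detected on all 8 arrays (x axis), blue circles for WT and red squares for MT. miR-140, at -0.50 and -0.59, lies among the others.

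Within a side of the slide, WT replicate 1 could be set beside MT, and WT replicate 2 beside control. miR-455-3p was -0.21 on the log2 scale in the first and 0.67 in the second. miR-140-3p was 0.089 and 0.19, and miR-140-5p was -0.09 and -0.05. The medians of all miRNAs tested were -0.06 and 0.13. These differences are the same as those of the model with the side as a term, and each rests on a single WT sample. In both, the WT sample lay in the other row of the slide, and the part of the row was not tested.

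Among the 102 other miRNAs detected on all 8 arrays, and over the 6 RNA samples, scaled miR-455-3p moved most like let-7c-5p, miR-149-5p and miR-93-5p, with Pearson r of 0.979, 0.979 and 0.976. miR-140-3p moved most like miR-30d-5p (0.954), miR-652-3p (0.953) and miR-224-5p (0.944), and miR-140-5p most like miR-20a-5p (0.859), miR-152-3p (0.839) and miR-720 (0.800). The strands of miR-140 had an r of 0.059 with each other. These are descriptions of 6 points that share the arrays' scaling.

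Of 62 miRNAs on the array from a list of chondrocyte and chondrogenesis miRNAs, 35 could be tested, 32 of them besides the members. None passed the adjusted threshold in any comparison by limma. At an unadjusted p under 0.05, 4 of the 32 were higher and 3 lower in WT against control, 6 higher and 4 lower in MT against control, and 0 in WT against MT. Over all 142, 25 were higher and 15 lower in WT against control (28.2% in all), and 38 higher and 18 lower in MT against control (39.4%), so the list was not called more often than the background. The median differences of the 32 were 0.07, 0.015 and -0.01. The smallest p in WT against control belonged to miR-29b-3p, which is known to repress collagen genes, at -1.06 (adjusted p = 0.139), followed by miR-574-5p at 0.76 and miR-214-3p at 0.49. In MT against control they were miR-214-3p at 0.78, miR-181a-5p at 0.80 and miR-29b-3p at -0.89, each with adjusted p = 0.0611. In WT against MT they were miR-214-3p at -0.29, miR-181a-5p at -0.31 and miR-22-3p at 0.25, each with adjusted p = 0.990. miR-29b-3p was 5.90 and 6.52 in WT, 6.42 and 6.33 in MT, and 7.36 and 7.18 in control on the scaled log2 scale, so the controls were highest.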

How the data were processed

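One-colour Agilent miRNA arrays were extracted by the authors with Feature Extraction (10.7.1.1 in the file headers, 9.1 in the submitters' processing notes), which gave the deposited background-corrected intensity of each spot and, as the authors' total gene signal, an intensity per miRNA. The table of the whole series held the same intensity values and was not used for tests. Here, outlier spots were left out, spots of a probe were averaged, and the brighter probe stood for a miRNA. Each array was divided by its 75th percentile over the 174 probes detected on all 8 arrays, a floor of 4.08 (log2) was set, and log2 values were fitted with limma 3.58.1 in R 4.3.3 over the 3 groups together, with Benjamini-Hochberg adjustment over 142 miRNAs detected on every array of at least 1 group (threshold 0.05).

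The limma fit was tested on simulated data with planted changes, which held no effect of slide position or scaling. The normexp alternative (offset 50) ran on the median signal, which the files used here hold, in place of the planned mean signal. Alternatives covered scaling, background, floor, filter, probes, spots, arrays, block, side and each replicate left out. Named beside the members were the 3 miRNAs most correlated with each, among those detected on all 8 arrays, and the 3 of the cartilage list with the smallest p in each comparison. The members and lists were chosen with earlier results of these data known. Strand ratios were compared by exact permutation. Figures were drawn with matplotlib 3.10.9.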

Additional observations from a re-analysis of the deposited data

How the results depend on the processing

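Counts of miRNAs past the threshold rose from 0 under several alternatives. In MT against control they were 29 among miRNAs detected on all 8 arrays, 40 with normexp, 1 with a floor 0.5 times as high, 3 with the total gene signal and 46 with no scaling, which was chosen after seeing the data. In WT against control they were 22 with normexp, 1 with a floor 0.5 times as high, 3 with the total gene signal and 28 with no scaling. With normexp the SE was 0.175 for each tested member in every comparison, so limma used a shared spread in place of each miRNA's own. Scaling also decided the split of unadjusted calls: in MT against control 67.9% were higher as reported, 82.7% with normexp, 33.3% with median scaling and 0% with the percentile over all mouse probes or no scaling. In WT against control these shares were 62.5%, 88.9%, 3.57%, 0% and 0%. Leaving out 1 replicate gave 0 to 18 in MT against control and 0 to 1 in WT against MT, the higher values without MT replicate 2.

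The miR-455-3p difference in MT against control passed limma's test at 0.78 among miRNAs detected on all 8 arrays (adjusted p = 0.0324). It also passed at 0.59 with normexp (0.00812), under the shared spread named above. As reported, its MT samples lay 0.53 apart, against a median of 0.18 over the miRNAs tested. The difference was 0.065 with the percentile over all mouse probes (0.940), which also covers the 449 miRNAs detected on no array. It was 0.45 with the mean of all probes, which brings in the miR-455-3p probe detected on 0 arrays. With no scaling it was 0.12, and with the total gene signal -0.25. Leaving out 1 replicate gave 0.51 to 1.05, the lowest without MT replicate 1 and the highest without MT replicate 2. The SD of the negative controls was 5.61 signal units on the array of MT replicate 1 and 2.94 on that of MT replicate 2. On the WT arrays this SD reached 6.63. In WT against control the miR-455-3p difference passed limma's test at 0.58 with normexp (0.0293). It was 0.26 with all mouse probes, 0.13 with no scaling, 0.31 with the mean of all probes and -0.52 with the total gene signal. In WT against MT it was 0.20 with the percentile over all mouse probes and 0.0083 with no scaling, and -0.42 to 0.11 with 1 replicate left out. The miR-140-3p difference was -0.38 in MT and -0.053 in WT against control with all mouse probes, and -0.32 and -0.19 with no scaling. In WT against MT it was 0.33, 0.14, 0.089 and 0.062 with all mouse probes, no scaling, slide side in the model and the total gene signal, and -0.14 to 0.089 with 1 replicate left out. The miR-140-5p difference in MT against control was -0.92 with no scaling (adjusted p = 0.0227) and 0.032 with side as a term, and -0.48 to -0.04 with 1 replicate left out. In WT against MT it was -0.086 with side as a term and -0.086 to 0.20 with 1 replicate left out. In WT against control it was -0.42 to 0.022, the latter without control replicate 1. The strand ratio of miR-140 in WT against MT was -0.17 to 0.35, below 0 without WT replicate 2. The causes were not tested. With the replicate number as a block, 0 miRNAs passed in each comparison, and miR-455-3p stayed at 0.78 (adjusted p = 0.0838) and 0.62 (0.167). Deviations of same-numbered samples correlated at 0.022 (WT, MT), 0.39 (WT, control) and -0.46 (MT, control). These do not settle any pairing. miR-455-5p was not detected and allows no statement on its level.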
